A study of Mus musculus with 2 samples.

Results

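C1q, its fellow complement factor properdin and the complement receptors of macrophages were examined in islet grafts recovered 6 hours after transplantation. The genes were C1qa, C1qb, C1qc, Vsig4, C3ar1, C5ar1 and Cfp. They were found by taking every probe set, apart from the array's controls, for which the platform annotation gives exactly 1 gene symbol and that symbol is on this list. This yielded 13 probe sets for 7 genes, out of 34945 probe sets for 18193 genes that carry 1 symbol.

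The comparison was between recipients, with 1 array each. Islets of wild-type (WT) C57BL/6 donors, 50 per recipient, were placed beneath the capsule of the left kidney. One recipient was a normoglycemic male WT C57BL/6 mouse, and the other was a hyperglycemic male mouse heterozygous for Akita, a missense mutation of the insulin gene Ins2 that leaves the animal short of insulin. The donor islets were thus WT in both grafts, and neither recipient is described as treated with insulin. The grafts are called here by their recipient, the WT graft and the Akita graft. The labels give no age, and how many mice were pooled for a sample, if any, is not stated in them. Blood glucose and recipient genotype cannot be told apart in this design, and there is no replicate, so no difference was tested and no p-value or SD between samples is given. Values are signals made with MAS5, a linear and unitless measure of probe set brightness. All fold values and log2 ratios set the Akita graft over the WT graft, and where signals are given in pairs, that of the WT graft comes first.

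Complement is a set of plasma proteins and receptors that tag and clear microbes, antibody complexes and dying cells. C1q, built from chains encoded by C1qa, C1qb and C1qc, binds such targets and starts the classical pathway. Most complement proteins of plasma are made in the liver, whereas C1q is made mainly by macrophages and dendritic cells. Cleavage of C3 and C5 then yields fragments that stay on the target, which are bound by receptors such as that encoded by Vsig4, and soluble fragments, C3a and C5a, which attract and activate leukocytes through the receptors encoded by C3ar1 and C5ar1. Cfp encodes properdin, which stabilizes the convertase of the alternative pathway and is released by neutrophils, monocytes and macrophages.

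The start regions of 3 of these genes are shown because C1qb and C1qc, which lie close together and had like ratios on these arrays, and C5ar1 share the letters AGGAAGT there. Of the 7 genes, 6 had an entry among the RefSeq promoters of GRCm38.p6, and C1qa had none. Each sequence covers the 250 bases before the gene's start, written 5′ to 3′ on the strand of the gene, which is the minus strand in all 3. Capitals mark AGGAAGT, which here always stands on the other strand and so reads ACTTCCT. The regions are chr4:136886201-136886450 for C1qb, chr4:136892915-136893164 for C1qc and chr7:16259339-16259588 for C5ar1.
C1qb: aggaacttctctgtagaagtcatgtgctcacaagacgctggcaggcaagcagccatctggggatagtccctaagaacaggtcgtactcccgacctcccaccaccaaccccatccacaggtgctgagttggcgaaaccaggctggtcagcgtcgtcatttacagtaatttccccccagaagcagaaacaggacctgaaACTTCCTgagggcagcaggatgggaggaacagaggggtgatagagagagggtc
C1qc: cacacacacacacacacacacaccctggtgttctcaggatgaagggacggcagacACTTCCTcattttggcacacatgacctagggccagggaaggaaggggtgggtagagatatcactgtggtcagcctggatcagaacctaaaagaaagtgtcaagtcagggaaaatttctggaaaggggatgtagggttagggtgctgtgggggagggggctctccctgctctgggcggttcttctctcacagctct
C5ar1: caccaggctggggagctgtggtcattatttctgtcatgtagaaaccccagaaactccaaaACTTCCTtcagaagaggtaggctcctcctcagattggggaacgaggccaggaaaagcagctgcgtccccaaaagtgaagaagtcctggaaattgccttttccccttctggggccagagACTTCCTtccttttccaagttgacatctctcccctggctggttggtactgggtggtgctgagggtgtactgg

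The starts of C1qb and C1qc are 6714 bases apart on chromosome 4. AGGAAGT, a form of the site bound by ETS factors such as PU.1 of myeloid cells, begins 53 bases before the start of C1qb and 195 bases before that of C1qc. C5ar1 holds it 2 times, at 190 and 72 bases before its start. On either strand it occurred in 3 of the 6 genes and in 7.69% of 32851 promoters of this length. GAGGAA, another core of PU.1 sites, was in C1qb, C1qc and Vsig4, 3 of the 6 genes, against 23.3% of all promoters, and in C1qc it overlaps AGGAAGT. The AP-1 site TGACTCA was in C3ar1 only, 1 of the 6, against 4.46%. These motifs were chosen after the sequences and signals had been seen, and a match of letters is not evidence of binding.

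All 3 subunits of C1q had higher signals in the Akita graft. C1qa, which encodes the A chain, read 433 in the WT graft and 2829 in the Akita graft, a 6.53-fold difference. C1qb, the B chain, had signals of 494 and 4045 on its brightest probe set (8.19-fold). C1qc, the C chain, had signals of 230 and 1700 (7.40-fold). Every C1q signal was above the median of its array, which was 82.9 in the WT graft and 91.5 in the Akita graft and served as the floor for low signals. In whole tissue of this kind, more cells of a type and more RNA per cell cannot be told apart. Nor can RNA of the donor islets, the kidney and the blood of the recipient.

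C1qb was covered by 3 probe sets, which gave the same direction. The second, an x_at probe set that may bind further transcripts, had signals of 348 and 2292 (6.59-fold), and the third, of the same type, 277 and 3102 (11.2-fold). The 5 probe sets of C1q thus ranged from 6.53-fold to 11.2-fold. The 3 subunits differed from each other by less than this. On the log2 scale the ratio of C1qb exceeded that of C1qa by 0.33, and the SD of such a difference, taken from pairs of probe sets of the same gene at like signals, was 0.33. C1qc lay 0.18 above C1qa and 0.15 below C1qb, with an SD of 0.42 for either difference. The differences among the subunits were therefore no larger than the scatter between probe sets of 1 gene, which is a technical spread within the arrays and not a replicate error.

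**Figure D1:**
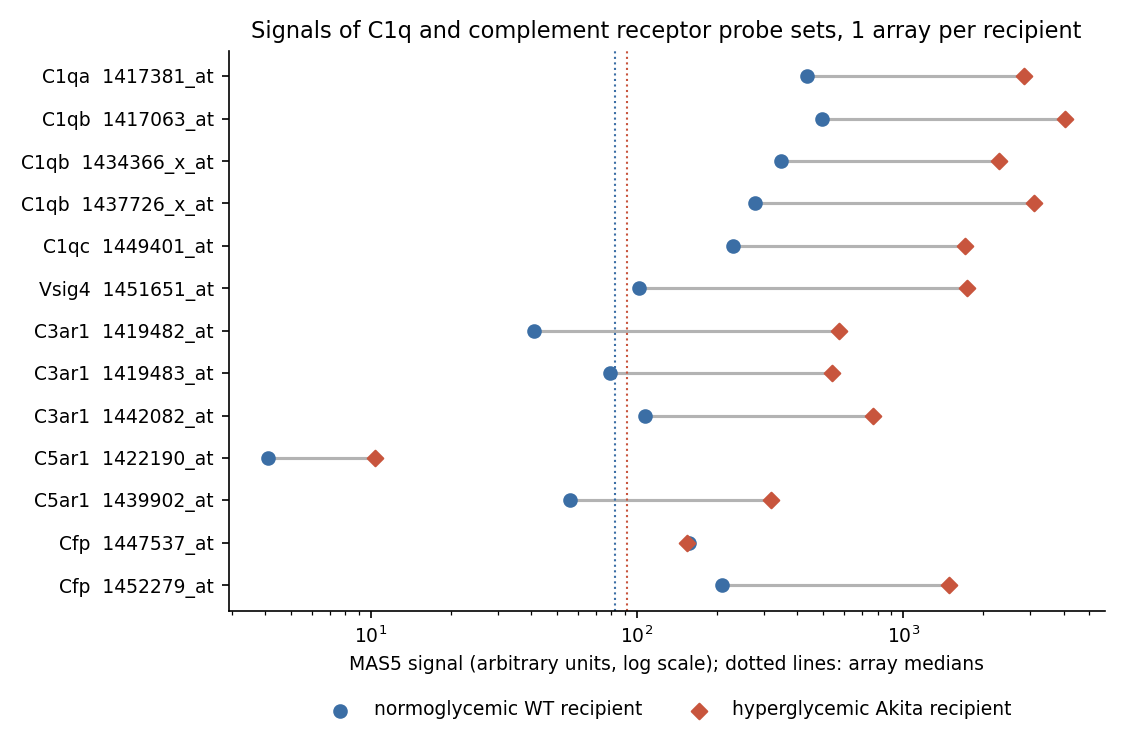
MAS5 signal (x axis, arbitrary units, log scale) of each of the 13 probe sets (rows) for the WT graft (circles) and the Akita graft (diamonds), 1 array each, with dotted lines at the array medians of 82.9 and 91.5. The 5 C1q probe sets lie to the right of both lines in both grafts, the dimmer C5ar1 probe set lies to the left of both, and the symbols of the dimmer Cfp probe set coincide.

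Among the receptors, Vsig4 had the highest ratio of the 7 genes. It encodes a receptor for C3b and iC3b found on macrophages resident in tissues, and its only probe set read 101 in the WT graft and 1729 in the Akita graft (17.1-fold). The first of these signals lay just above the array median, so the size of the fold rests on a dim signal. The log2 ratio of Vsig4 exceeded that of C1qb by 1.06, which is 2.53 times the SD of such a difference between probe sets, and that of C3ar1 by 1.25, which is 2.56 times. The SD was taken at the mean signal of each gene, where scatter is lower than at a signal of 101. These multiples rest on the brightest probe sets. Against 4.09 for Vsig4, the other probe sets of C1qb had log2 ratios of 2.72 and 3.49. Those of C3ar1, each with a WT signal below the median, had 3.81 and 2.77 as deposited.

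Both anaphylatoxin receptors had higher signals in the Akita graft, from a low level in the other graft. C3ar1, the receptor of C3a, had signals of 107 and 768 on its brightest probe set (7.17-fold). Its other 2 probe sets gave signals of 41.1 and 574 and of 79.2 and 541, with the first value of each below the array median, and with low signals raised to the median they were at least 6.93-fold and 6.52-fold higher. The 3 probe sets of C3ar1 thus agreed in direction, but only 1 had both signals above the medians.

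C5ar1, the receptor of C5a, had signals of 56.0 and 319 on its brighter probe set. The first was below the median, so the ratio of 5.70 as deposited becomes a bound of at least 3.85-fold. On its dimmer probe set, signals of 4.12 and 10.4 were both below the medians and no fold is given. Its ratio is therefore not set against that of C3ar1.

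The probe sets of Cfp disagreed. On the brighter one, Cfp had signals of 208 in the WT graft and 1484 in the Akita graft (7.13-fold). On the other, the signals were 157 and 154, a log2 ratio of -0.03, and both were above the medians. Which of the 2 follows properdin mRNA was not tested, and its ratio therefore rests on the choice of probe set.

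Taken by the brightest probe set of each gene, all 7 genes exceeded 2-fold, and all 7 also exceeded 5-fold, in the Akita graft, with a median log2 ratio of 2.84. Of the 12538 genes measured, meaning that at least 1 of the 2 signals reached the median of its array, 7.56% were over 2-fold higher and 2.42% over 5-fold higher, and the median log2 ratio was -0.06. With low signals raised to the medians, 6 of the 7 genes were over 5-fold higher, all but C5ar1. By probe set, 12 of 13 were over 2-fold higher and 11 of 13 over 5-fold higher, where 16.0% and 6.34% of all probe sets with 1 symbol were. None of the 13 was over 2-fold lower, against 13.8%. Both signals reached the medians in 9 of the 13 probe sets, only that of the Akita graft in 3, and neither in 1. The 7 genes were picked with earlier results of these arrays known, so these counts describe them and are not independent evidence of their direction.

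**Figure D2:**
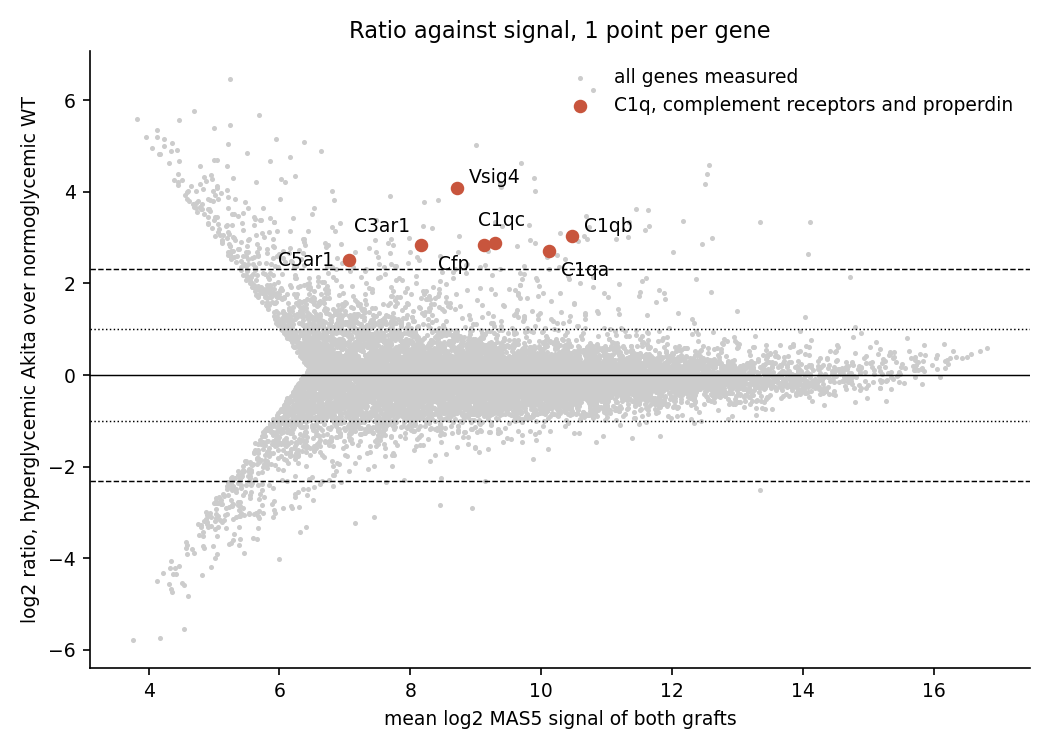
Log2 ratio of the signals, Akita over WT graft (y axis), against the mean log2 signal of both grafts (x axis), 1 gray point per gene for 12538 genes measured, with the 7 genes in red. Dotted lines mark 2-fold and dashed lines 5-fold. With signals as deposited, the 7 genes lie above the upper 5-fold line, from C5ar1 (2.51) to Vsig4 (4.09), and C5ar1 lies farthest to the left, where the points of other genes scatter widely.

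Among the remaining complement genes, most of those over 2-fold higher were receptors. Of 48 genes listed for the pathways, regulators and other receptors, 35 had a probe set with 1 symbol and 24 were measured. Among the 24, the Akita graft had a signal over 2-fold higher for 8, over 2-fold lower for 1 and within 2-fold for 15, beside 7.56% of all genes measured that were over 2-fold higher and 5.54% that were over 2-fold lower. Their median log2 ratio was 0.18. With low signals raised to the medians, 6 exceeded 2-fold upward and 0 downward, and 5 of these 6 were on the list of other receptors.

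Of 8 other genes listed for the classical pathway, in which C1q acts, 3 had a probe set with 1 symbol. All 3 were measured and 0 were over 2-fold higher. C4b, which the paper lists among genes over 5-fold higher in hyperglycemic mice, had no probe set with 1 symbol and is not covered here. C2, which is cleaved to form the C3 convertase, had signals of 1388 and 1431. C1ra, a protease that binds C1q, had signals of 134 and 114. C1s1, the partner protease, had signals of 104 and 10.1, and since the second was below the median, it was at least 1.14-fold lower. Both C1ra and C1s1 are thus near or below the floor, where scatter is wide.

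In the lectin pathway, 1 of 5 measured genes was over 2-fold higher. This was Fcna, which encodes ficolin A, a recognition protein made by macrophages, with signals of 217 and 2085 (9.60-fold). Mbl1, a mannose-binding lectin, had signals of 191 and 197, and Masp1, a protease of this pathway, 114 and 141. Fcnb, the other ficolin, had signals of 104 and 67.2, and Colec12, a scavenger receptor with a collagen stretch, 143 and 88.8. Cfb, factor B of the alternative pathway and the only gene of its list with a value, had signals of 6286 and 3994, a log2 ratio of -0.65, so that it ran opposite to the properdin probe set with the higher ratio.

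None of the 6 measured regulators differed by more than 2-fold. Clu, which encodes clusterin, an inhibitor of the terminal complex, had signals of 17192 and 22179. Cd59a, a membrane inhibitor of that complex, had signals of 1353 and 925, and Cr1l, which encodes Crry, a membrane regulator of C3 cleavage, 1587 and 1468. Cfi, factor I, had signals of 717 and 927. The probe sets of Cd55, a membrane protein that speeds decay of the convertases, disagreed, with 1.29-fold on the brightest and 19.8-fold as deposited on another. Of the 3 measured terminal pathway genes, C8g had signals of 884 and 916. C8a, at 54.3 and 158, and C9, at 27.2 and 102, were below the median in the WT graft, and were at least 1.91-fold and 1.23-fold higher.

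Among the other receptors, 5 of 6 measured genes were over 2-fold higher. Itgb2, the shared beta chain of complement receptors CR3 and CR4, had signals of 594 and 4686 (7.89-fold). Itgam, the alpha chain of CR3, had signals of 74.7 and 587, at least 7.08-fold, and Itgax, the alpha chain of CR4, 94.7 and 206 (2.18-fold). Lrp1, an endocytic receptor that also takes part in uptake of C1q-bound cells, had signals of 191 and 403 (2.11-fold). Cd93, once described as a C1q receptor, was 2.62-fold higher on its brightest probe set, but its 4 measured probe sets ranged from 1.05-fold to 2.82-fold. Calr, calreticulin, which binds the collagen stalk of C1q, had signals of 10904 and 10234. Cr2, the receptor of C3d on B cells, was below the medians in both grafts, at 16.5 and 84.6. Itgax, Lrp1 and Cr2 were named after their values had been seen.

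Taken by the brightest probe set, genes related to C1q by domain or by name had lower ratios than the 3 subunits. Of 21 with a probe set, 11 were measured, 4 over 2-fold higher (2 with low signals raised), 1 over 2-fold lower and 6 within 2-fold, with a median log2 ratio of 0.14. C1qbp, a mitochondrial protein that can bind C1q, had signals of 18245 and 20123. C1qtnf3 and C1qtnf12, secreted relatives, had signals of 1330 and 788 and of 6020 and 4915. Emilin2, an extracellular matrix protein, had signals of 412 and 1614 (3.92-fold), and Mmrn1, of platelets and endothelium, 49.9 and 204, at least 2.46-fold. Adipoq, which encodes the fat cell hormone adiponectin, had signals of 31.7 and 105, at least 1.27-fold. The 2 probe sets of Emilin1, named after its values had been seen, disagreed, with 1.10-fold on the brighter and 6.99-fold as deposited on the other.

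**Figure D3:**
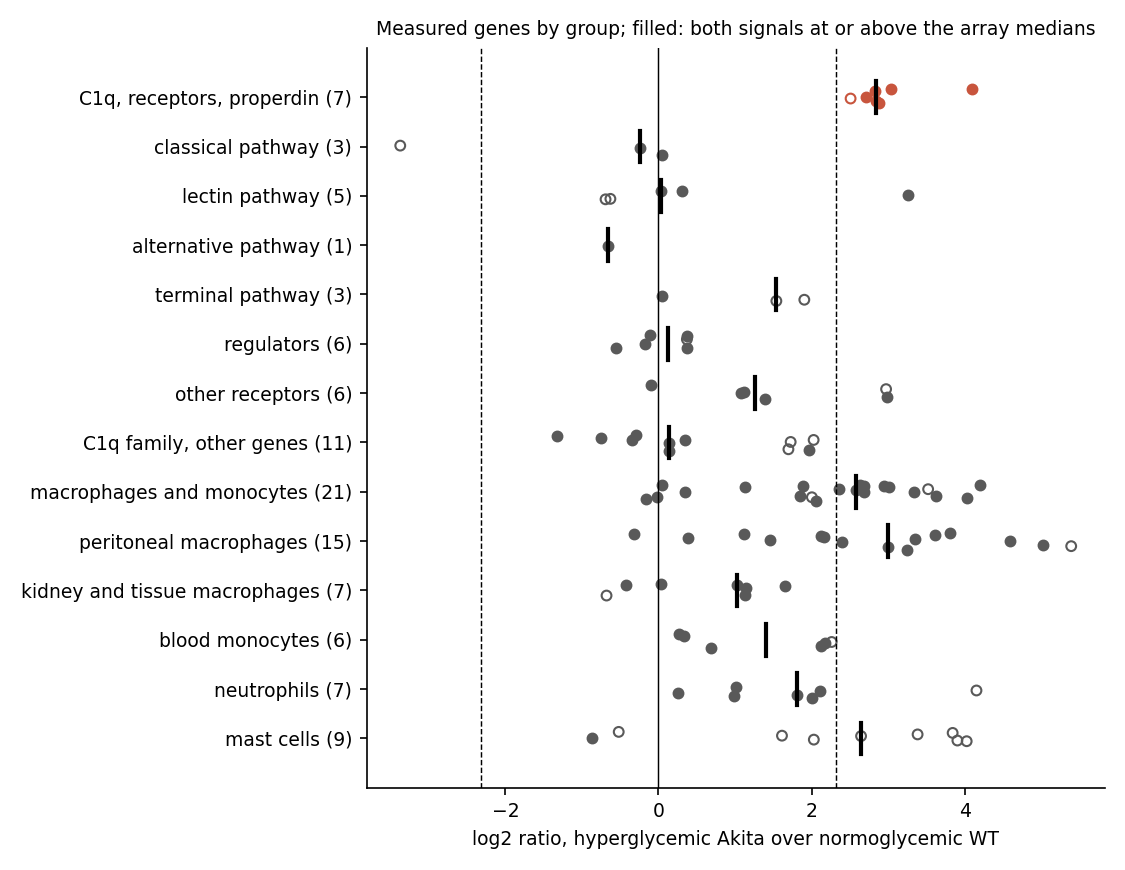
Log2 ratio of the signals, Akita over WT graft (x axis), 1 point per measured gene, for C1q with the complement receptors and properdin (red), the other complement and C1q family genes and markers of cell types (gray), with the number of genes in brackets. Points are filled where neither signal falls below its array median and open otherwise, black bars show the median of each group, and 5-fold is dashed. The median of the 7 genes (2.84) stands beside those of macrophage (2.58) and peritoneal macrophage markers (3.0). That of the mast cell markers (2.65) is as deposited. Of these 9 genes, 7 had a WT signal below the median, so their ratios rest on low signals. Those of the regulators (0.13) and the classical pathway (-0.24, 3 genes without C4b) stand near 0.

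Markers of several leukocytes moved with the 7 genes. Of 23 macrophage and monocyte markers with a probe set, none of them among the 7 genes, 21 were measured, 17 were over 2-fold higher, 12 of these over 5-fold (11 with low signals raised), and 0 were over 2-fold lower. Their summed signal was 21293 in the WT graft and 124118 in the Akita graft. None was at 0 in either graft, and Cd163 and Aif1 were below both medians. Adgre1, which encodes the macrophage antigen F4/80, had signals of 447 and 2673 (5.98-fold), Cd68, of lysosomes, 166 and 1074 (6.46-fold), and Csf1r, the receptor of the macrophage growth factor, 1872 and 6769 (3.62-fold). Fcgr3, an Fc receptor, was 16.3-fold higher, Ms4a6d 18.4-fold and Lyz2, which encodes lysozyme and was the brightest of the list, 10.1-fold. Adgre1, Aif1, Cd68, Cd163 and Csf1r were named after their values had been seen.

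Taken by the brightest probe set, the 6 genes with both signals above the array medians had ratios above the median of these markers, though most were near it. The median log2 ratio of the macrophage markers was 2.58, and of the 6 genes with both signals above the array medians, 5 lay within 1.5-fold of it, from C1qa at 0.13 above to C1qb at 0.45 above. Vsig4 was the exception, at 1.51 above. Cfp was near the marker median only on its brighter probe set, and its other one had a log2 ratio of -0.03. C5ar1, with its bound of at least 3.85-fold, cannot be placed. Of the 21 markers, 6 had ratios between the lowest and the highest of the 6 genes, 14 lay below and 1 above. These counts use ratios as deposited, also for Mrc1 and Marco, the 2 markers with a WT signal below the median. Not all macrophage genes were over 2-fold higher, and 4 of the 21 were within 2-fold. Mertk, a receptor for dying cells, had signals of 1521 and 1497, Ms4a7 196 and 176, Lgmn, a lysosomal protease, 4514 and 5745, and Spi1, which encodes PU.1, 142 and 146. Mertk, Ms4a7 and Spi1 were likewise named after their values were known.

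Lists for subsets of macrophages differed in their medians. Of 16 genes typical of peritoneal macrophages, 15 were measured and 13 were over 2-fold higher, with a median log2 ratio of 3.0 and summed signals of 9966 and 106409. Slpi, a protease inhibitor, was 24.2-fold higher, Alox15, an arachidonate lipoxygenase, 32.6-fold, and Timd4, a receptor for dying cells, at least 2.51-fold, from signals of 4.95 and 208. Gata6, a transcription factor of these cells named after its value was seen, had signals of 128 and 576. The 2 within 2-fold were Wt1, at 103 and 135, and Rarb, at 234 and 188, likewise named after their values were seen. Of 9 genes of kidney and other tissue macrophages, 7 were measured and 4 over 2-fold higher, with a median of 1.02. Their summed signals were 20300 and 31019. Apoe, with the highest ratio, had signals of 2149 and 6755 (3.14-fold). The 3 within 2-fold were Cd81, the brightest, at 12750 and 13051, Cx3cr1, at 131 and 97.6, and Lyve1, at 127 and 79.3. The last of these signals was below its array median. Cx3cr1 and Lyve1 were named after their values had been seen. Of 7 blood monocyte genes, 6 were measured and 3 over 2-fold higher, with a median of 1.40 and summed signals of 2980 and 5482. F13a1 had signals of 285 and 1291, whereas Plac8, the brightest of the list, had 1748 and 2103. The part of each of these cell types in the C1q and receptor signals was not tested.

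Other cells that carry anaphylatoxin receptors or release properdin also had markers with higher signals. Of 11 neutrophil genes, 7 were measured and 5 were over 2-fold higher (4 with low signals raised), with a median log2 ratio of 1.81. Their summed signals were 5000 and 18373. S100a9, a calcium-binding protein of these cells, had signals of 2536 and 10930, and Csf3r, the receptor of their growth factor, 136 and 547. Of 11 mast cell genes, 9 were measured and 7 were over 2-fold higher (4 with low signals raised). Their summed signals were 1038 and 2947. Cpa3, a mast cell protease, had signals of 53.2 and 798. Gata2, the brightest of the list, was lower in the Akita graft, at 623 and 342, as was Tpsab1, at 131 and 91.4. Of the 9, only Gata2 stayed above the median on both arrays. The 8 B cell genes, which bear on Cr2, did not move one way. Of 6 measured, 3 exceeded 2-fold upward and 1 downward (3 and 0 with low signals raised), with a median of 0.68. Summed signals were 755 and 1464. Cd79b, which encodes a signalling chain of the antigen receptor, had signals of 10.3 and 370, whereas Pax5, a transcription factor of these cells, had 113 and 15.5. Ighm, an antibody heavy chain, had signals of 298 and 203 on its brightest probe set. Its 4 measured probe sets disagreed, with ratios on both sides of 1, from 0.64 to 27.96 as deposited. None of these genes was at 0 in either graft, and their part in the complement receptor signals was not tested.

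Among islet genes, hormones of cells other than beta cells also had higher signals in the Akita graft. All 9 islet genes with a probe set were measured, 3 of them over 2-fold higher, 6 within 2-fold and 0 lower than that, and the median log2 ratio was 0.36. The 3 were Ppy, which encodes pancreatic polypeptide, with signals of 3295 and 11580 (3.51-fold), Sst, somatostatin, with 1408 and 3806 (2.70-fold), and Gcg, glucagon, with 10784 and 26023 (2.41-fold). Ins2, insulin of beta cells, had signals of 68738 and 88302. The part of these cells in the C1q and receptor signals was not tested. All 8 proximal tubule genes were within 2-fold, with a median of 0.03, and Kap, an abundant transcript of these cells, had signals of 89517 and 128500, so RNA of the kidney was present in both samples. Of 6 measured endothelial genes, 2 were over 2-fold lower in the Akita graft and 0 over 2-fold higher, with a median of -0.81. These were Tek, a receptor of angiopoietins, with signals of 331 and 80.2, and Pecam1, an adhesion molecule, with 86.7 and 12.5, and with low signals raised only Tek remained over 2-fold lower.

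The 18 hybridization control probe sets, RNA added to every array, had signals 1.91-fold higher at the median in the Akita graft, whereas the mean signal of all other probe sets without the lowest and highest 2% was 494 on both arrays. With the Akita array divided by this factor, a scaling chosen after the data had been seen, all 7 genes were still over 2-fold higher, but Vsig4 alone was over 5-fold higher, and the median log2 ratio of the 7 genes was 1.91. That scaling moved the median of all genes measured to -0.99, and 3.13% of them were then over 2-fold higher and 1.12% over 5-fold higher, while 49.5% were over 2-fold lower. Whether the scaling of the deposited signals or that of the controls is closer to the RNA of the grafts was not tested.

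The genes with signals most like those of the 7 were sought among 10810 other genes whose signals all reached the medians, by the Euclidean distance of the 2 log2 signals. Nearest to the mean of the C1q subunits were S100a4 (distance 0.07), Msr1, a scavenger receptor (0.18), Adgre1 (0.29), Ccr1, a chemokine receptor (0.34), and Laptm5, a lysosomal protein of leukocytes (0.43). S100a4 had signals of 354 and 2598 and Msr1 329 and 2539. Nearest to Vsig4 was F10, coagulation factor X (0.44), at 91.9 and 1291, ahead of Ifitm6 and Alox15. Nearest to C3ar1 was Bst1 (0.21), followed by Trem1, a receptor of myeloid cells, and Ltbp1, and nearest to Cfp was Ccl2, a monocyte chemokine (0.07), followed by Ly86 and Cxcl3. For C5ar1, no gene lay closer than Fcgr4 (0.62), followed by Evi2a and Csf2rb2, since its lower signal was below the median that the search required. With 2 samples, such likeness says only that 2 values were close.

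**Figure D4:**
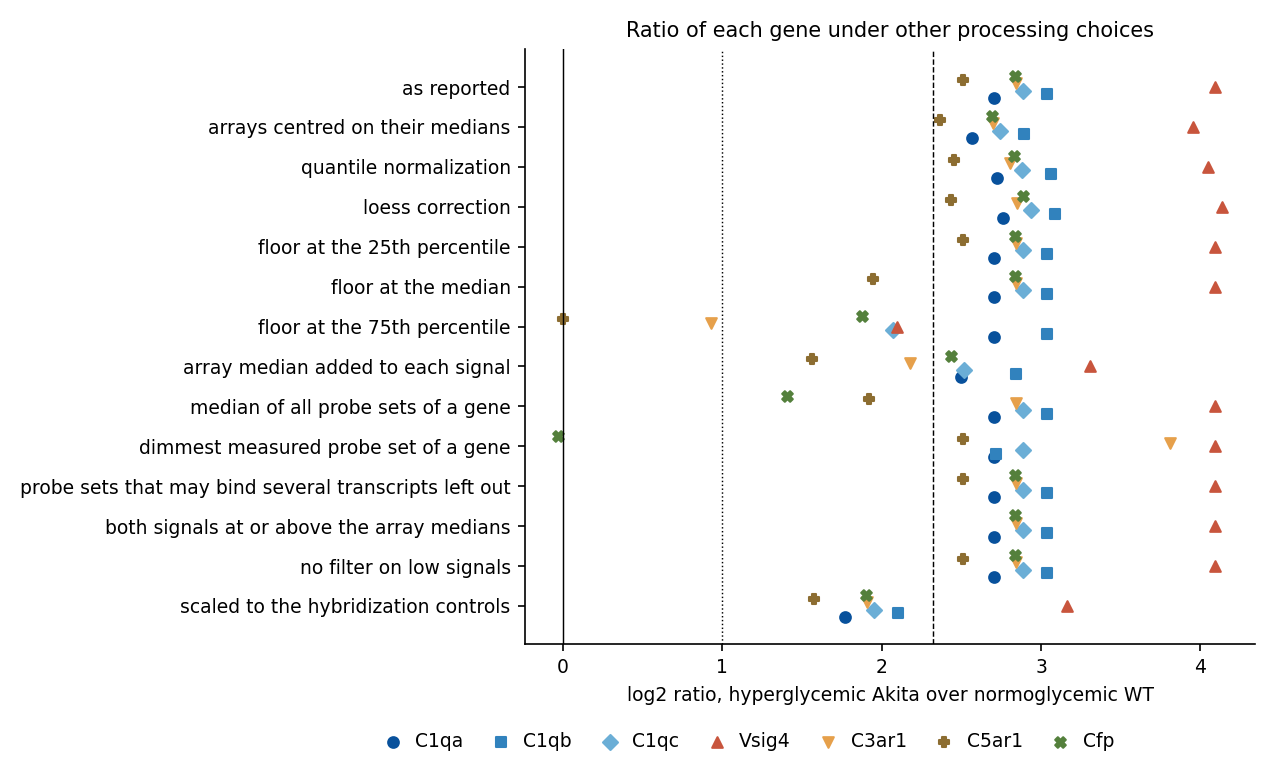
Log2 ratio of each of the 7 genes, Akita over WT graft (x axis), as reported and under 13 other processing choices (rows), with a dotted line at 2-fold and a dashed line at 5-fold. Vsig4 lies farthest to the right in all rows but 1, C1qa and C1qb stay to the right of the 5-fold line in every row but that scaled to the hybridization controls, and Cfp falls to -0.03 where the dimmest measured probe set is taken.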

How the data were processed

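RNA of 2 islet graft samples was hybridized to 1 MOE430 2.0 array each. The authors deposited linear MAS5 signal intensities, and neither the version nor the scaling, which could change every ratio, is stated. Per the methods, expression was analysed in the Subio Platform. The table held 45101 probe sets, 64 of them controls. Of the others, 34945 carried 1 gene symbol in the platform annotation, 932 several and 9160 none, and only those with 1 were named.

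Signals were compared without further scaling. Each gene was represented by its brightest probe set, judged by the mean log2 signal. A gene was measured when 1 signal reached its array median. Where only the lower signal missed it, that signal was raised to its array median and the fold is a bound. There were no detection calls, and the number of arrays limits precision. The SD between probe sets came from pairs that share a symbol, in bins of the lower mean signal of the pair.

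The genes and all lists were chosen with earlier results of these data known. The genes to be named were all 7, per list up to 3 genes whose log2 ratio was farthest from 0 and up to 3 of the brightest, and the nearest genes (5 for C1q, 3 for each other gene). Of the markers so chosen, only some are printed, picked after their values were seen. Alternatives tried were quantile normalization, median centring, loess (span 0.3, 3 iterations), floors, an added median, other probe sets and filters and, added after the data were seen, scaling to the hybridization controls. Calculations were checked on simulated ratios and used Python 3.11.15, numpy 2.4.6, pandas 2.3.3, statsmodels 0.14.6 and matplotlib 3.10.9.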

Additional observations from a re-analysis of the deposited data

How the results depend on the processing

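C1qa, C1qb, C1qc and Vsig4 were over 2-fold higher in the Akita graft under all 13 alternatives, with log2 ratios from 1.77 to 4.13. Scaling to the hybridization controls, added after seeing the data, moved the median log2 ratio of all genes from -0.06 to -0.99. It gave medians of 1.91 for the 7 genes, 1.95 for the C1q subunits and -0.75 for the other complement genes, counts of 1 of the 7 genes over 5-fold higher and, of the other complement genes, 3 over 2-fold higher and 9 lower, and moved each of the 7 genes. Centring on the array medians moved the median of all genes to -0.20. With low signals raised to the 75th percentile, the 7 genes had a median of 2.07, with 2 over 5-fold higher, and C1qc was at 2.07, Vsig4 2.10, Cfp 1.88, C3ar1 0.93 and C5ar1, with both signals below it, 0.0. With the array median added to each signal, the C1q subunits had a median of 2.52, C1qc was at 2.52, Vsig4 3.31, C3ar1 2.18, C5ar1 1.56 and Cfp 2.44. With the dimmest measured probe set, C1qb was at 2.72, C3ar1 3.81 and Cfp -0.028, the only reversal among the 7 genes, and Cfp was at 1.40 with the median of its probe sets. C5ar1 has no value where both signals had to reach the medians. Of the other complement genes, 3 were over 2-fold higher with the 75th percentile floor, 4 with the array median added, 5 where both signals had to reach the medians and 14 without a filter. The count over 2-fold lower was 0 with floors at the median and the 75th percentile, with the median added, without probe sets that may bind several transcripts and where both signals had to reach the medians, and 3 without a filter. The remaining values moved by less than the SD between probe sets, or, for counts, by no more than 1.5 times. No paired analysis was possible because each group holds 1 sample, and no replicate could be left out. Low signals, without detection calls, limit C3ar1, C5ar1 and Vsig4 most.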
